A study of Mus musculus with 6 samples.

Results

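Regulators of G protein signalling were examined in the inguinal adipose tissue (iAT) of young mice, a white fat depot. The 10 genes described are *Rgs7* and the other members of its subfamily (*Rgs6*, *Rgs9* and *Rgs11*), their protein partners *Gnb5* and *Rgs7bp*, and 4 Rgs genes known from vessels and fat, *Rgs2*, *Rgs4*, *Rgs5* and *Rgs16*. They were taken by symbol out of 19831 listed genes, and all 10 were found. The set was chosen by the deposited genotype values, with *Rgs7* selected on its ratio between genotypes and the others as its relatives or for their abundance, so the genotype values below describe the genes and carry no test. RNA sequencing covered 3 samples from wild-type mice and 3 from mice without *Npffr1* (Npffr1-KO), which encodes the Gi/o-coupled neuropeptide FF receptor NPFFR1, and all samples were of postnatal day 6. The labels give no strain, sex or breeding, do not say how *Npffr1* was ablated or in which cells, and do not say whether a sample is 1 animal.

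A receptor coupled to a heterotrimeric G protein makes the alpha subunit exchange GDP for GTP, and the signal lasts until that GTP is hydrolysed. RGS proteins speed up the hydrolysis and so shorten the signal. The R7 subfamily acts on alpha subunits of the Gi/o class and is best known from neurons and photoreceptors, where its proteins are stable only when bound to Gbeta5, the product of *Gnb5*. The R4 subfamily consists of small proteins that act on Gi/o, Gq or both and are found in many tissues, vessels included.

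The authors' deposited table holds 1 value per gene and genotype, a read count normalized for library size, with a total of 23137343 for wild-type and 23640005 for Npffr1-KO. Their ratio is a shrunken fold: it lies nearer to 1 than the ratio of the reads, most of all for genes with few reads. For genes with a mean under 70 normalized counts the whole reads of each of the 6 libraries could be worked out, for 7060 of 7063 genes as a single combination. These libraries are called wild-type A to C and Npffr1-KO A to C. They are known by genotype but not by sample number, and the spread over them may be technical. *Npffr1* itself had 1, 0 and 5 reads in the wild-type libraries and 0 reads in each Npffr1-KO library, too few to check any single library. The libraries resembled each other moderately across 2538 genes with a mean of 10 to 70, with Spearman coefficients between pairs of 0.597 to 0.794. Npffr1-KO C was the lowest of the 6 libraries in 25.9% of these genes, against 11.3% to 18.2% for the others.

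In wild-type iAT the 10 genes spanned 3 orders of magnitude per kilobase of listed gene length. *Rgs5*, widely used as a marker of pericytes, was by far the highest, with 3801 normalized counts per kilobase, above 98.0% of all listed genes. *Gnb5* followed with 489 per kilobase, *Rgs4* with 326, *Rgs2* with 239 and *Rgs16* with 174. All of these exceeded the median listed gene, *Rgs16* with a percentile of 59.3. The others were low, with *Rgs7bp* at 35.8 per kilobase, *Rgs6* at 21.8, *Rgs11* at 12.6, *Rgs9* at 11.5 and *Rgs7*, the lowest, at 2.73, above 17.4% of listed genes. The deposited level of *Rgs7* is itself drawn towards that of the other genotype: from reads its mean was 1.04 per kilobase in wild-type, below the deposited level, and 13.4 in Npffr1-KO. *Gnb5* thus stood at 22.4 times the level per kilobase of *Rgs6*, the most abundant R7 gene. The library values, known for 3 of the genes, did not separate *Rgs11* from *Rgs9* in wild-type, since *Rgs11* ranged from 10.6 to 13.9 per kilobase over the libraries and *Rgs9* from 11.02 to 12.58. *Rgs7* ranged from 0.397 to 1.54 there and lay below both. In Npffr1-KO the order changed at 2 places: *Rgs2* (378 per kilobase) stood above *Rgs4* (223), and *Rgs7* (11.8) stood above *Rgs9* (9.97). The latter order did not hold in each library, as *Rgs7* ranged from 3.63 to 19.3 per kilobase and *Rgs9* from 6.32 to 12.4.

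**Figure D1:**
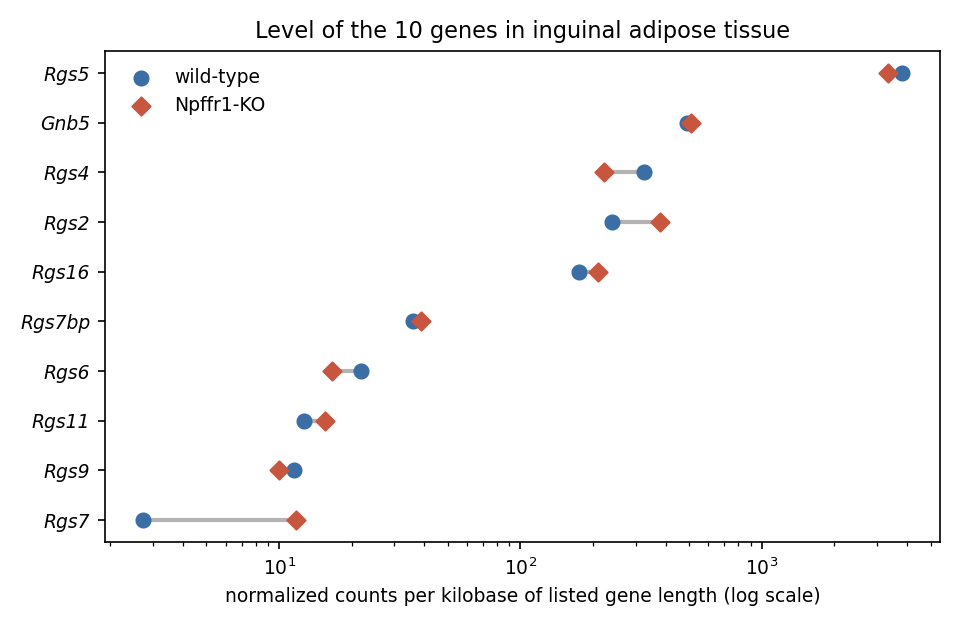
Deposited level of the 10 genes in each genotype, in normalized counts per kilobase of listed gene length on a log axis, with 1 point per gene and genotype and no error bars because the table gives a single value. The points span 2.73 (*Rgs7*) to 3801 (*Rgs5*) in wild-type, and the widest gap between genotypes is that of *Rgs7*.

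*Rgs7* (Entrez 24012) encodes the founding member of the R7 subfamily. Its deposited value was 6.82 normalized counts for wild-type and 29.4 for Npffr1-KO, a 4.31-fold ratio and the fourth highest among 15309 genes with a mean of at least 10. The genes next to it in that order were *Fabp3* and *Cidea* above, with log2 ratios of 2.51 and 2.23, and *Plin5* and *Retnla* below, with 1.97 and 1.90. *Fabp3* encodes a fatty acid carrier of oxidative tissues, *Cidea* and *Plin5* encode lipid droplet proteins, and *Retnla* a secreted protein of macrophages and adipocytes. By library, *Rgs7* had 4, 3 and 1 reads in wild-type A, B and C. It had 50, 9 and 40 reads in Npffr1-KO A, B and C. Every Npffr1-KO library thus lay above every wild-type library. In number of reads, though not clearly as a ratio, Npffr1-KO B was closer to the wild-type libraries than to the other Npffr1-KO libraries. After division by the size factors, the mean was 2.60 ± 1.47 normalized counts (SD, n = 3) for wild-type and 33.6 ± 21.4 (SD, n = 3) for Npffr1-KO, a ratio of 12.95. The 95% interval of this ratio from counting error alone (exact binomial, 8 reads against 99) was 6.29 to 30.7, and it does not cover the spread between libraries. Since *Rgs7* was chosen on its ratio between genotypes, the interval is no test of that ratio. With each library left out in turn the log2 ratio ranged from 3.31 to 4.14, the highest without Npffr1-KO B and the lowest without wild-type C.

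The promoter of *Rgs7* is shown because this gene had the widest ratio, and those of *Rgs2* and *Rgs4* because they had the next widest, in opposite directions. Each sequence covers the 250 bases before the annotated gene start, 5′ to 3′ on the strand of the gene, from RefSeq on GRCm38.p6. A promoter was matched for 9 of the 10 genes (all but *Rgs11*). Capitals mark matches, on either strand, to the letters TGACG (the CRE half-site, to which cAMP-responsive factors can bind), TATAAA (the TATA box), CCAAT (the CCAAT box), GGGCGG (the GC box) and CACGTG (the E-box).
*Rgs7* chr1:175492546-175492795 (minus strand): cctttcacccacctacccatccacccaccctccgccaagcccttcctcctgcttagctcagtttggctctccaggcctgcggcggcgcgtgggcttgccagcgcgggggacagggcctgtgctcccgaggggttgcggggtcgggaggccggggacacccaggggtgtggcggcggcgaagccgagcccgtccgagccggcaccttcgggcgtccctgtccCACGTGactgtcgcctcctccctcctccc
*Rgs2* chr1:144004150-144004399 (minus strand): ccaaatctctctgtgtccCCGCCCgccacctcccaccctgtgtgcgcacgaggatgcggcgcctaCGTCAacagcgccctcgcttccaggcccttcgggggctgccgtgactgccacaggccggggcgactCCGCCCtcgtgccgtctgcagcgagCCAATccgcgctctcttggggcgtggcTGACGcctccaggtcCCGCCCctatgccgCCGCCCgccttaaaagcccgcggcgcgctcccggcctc
*Rgs4* chr1:169747643-169747892 (minus strand): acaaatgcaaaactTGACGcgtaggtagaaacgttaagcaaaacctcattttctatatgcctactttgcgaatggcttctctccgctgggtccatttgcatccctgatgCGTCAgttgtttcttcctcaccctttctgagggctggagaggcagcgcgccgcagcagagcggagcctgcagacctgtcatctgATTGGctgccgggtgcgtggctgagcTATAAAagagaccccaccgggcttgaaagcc
The *Rgs7* window held 1 of these motifs, a CACGTG that starts 29 bases before the gene start, and 6.02% of 32851 promoters of the same length held it. It was rich in G and C (72.4%) with 22 CpG dinucleotides and had no TATAAA. The *Rgs2* window had the same G and C content, 30 CpG dinucleotides, 4 GC boxes, 1 CCAAT box, and the CRE half-site at 185 and at 67 bases before the start. *Rgs4* also held the CRE half-site at 236 and at 141 bases before the start, together with a TATAAA at 31 bases and the reverse complement of CCAAT at 57. The CRE half-site was present in 17.8% of all promoters, the GC box in 32.7%, the CCAAT box in 33.8% and the TATA box in 12.4%. Among the 9 windows, *Rgs2*, *Rgs4* and *Rgs7bp* held the CRE half-site. These matches describe the letters only and were not tested as sites.

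The other R7 genes differed far less between genotypes than *Rgs7*. *Rgs11*, whose product is known from bipolar cells of the retina, had 22, 26 and 28 reads in the wild-type libraries, against 31, 34 and 28 in those of Npffr1-KO. After division by the size factors the wild-type libraries reached 27.8 at most and the Npffr1-KO libraries 29.9 at least, so the groups did not overlap, by a narrow margin. Their means were 24.8 ± 3.31 and 31.6 ± 2.39 normalized counts (SD, n = 3 each), a 1.27-fold ratio whose interval from counting error, 0.930 to 1.75, included 1. *Rgs9*, the RGS gene of photoreceptors and the striatum, had 81, 70 and 71 reads in wild-type, against 80, 67 and 36 in Npffr1-KO. The groups overlapped and the low value came from 1 library, Npffr1-KO C. The means of *Rgs9* were 72.4 ± 5.13 and 61.3 ± 19.7 normalized counts (SD, n = 3 each). Its log2 ratio was -0.24 with all libraries and -0.00098 without Npffr1-KO C. *Rgs6*, known from heart and neurons, where it limits signalling through Gi/o-coupled receptors, had a deposited value of 129 in wild-type and 97.7 in Npffr1-KO, a log2 ratio of -0.40. Its mean was above the limit of the search and 9 combinations of reads matched it, so no reads per library are given and its spread is not known. Of the 3 genes of the set with reads per library, *Rgs7* and *Rgs11* lay wholly above in Npffr1-KO and none wholly below. Among the 2538 genes with a mean of 10 to 70, 6.46% lay wholly above and 10.1% wholly below. Since *Rgs7* was chosen on its ratio between genotypes, nothing is read from the count of the 3 genes.

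**Figure D2:**
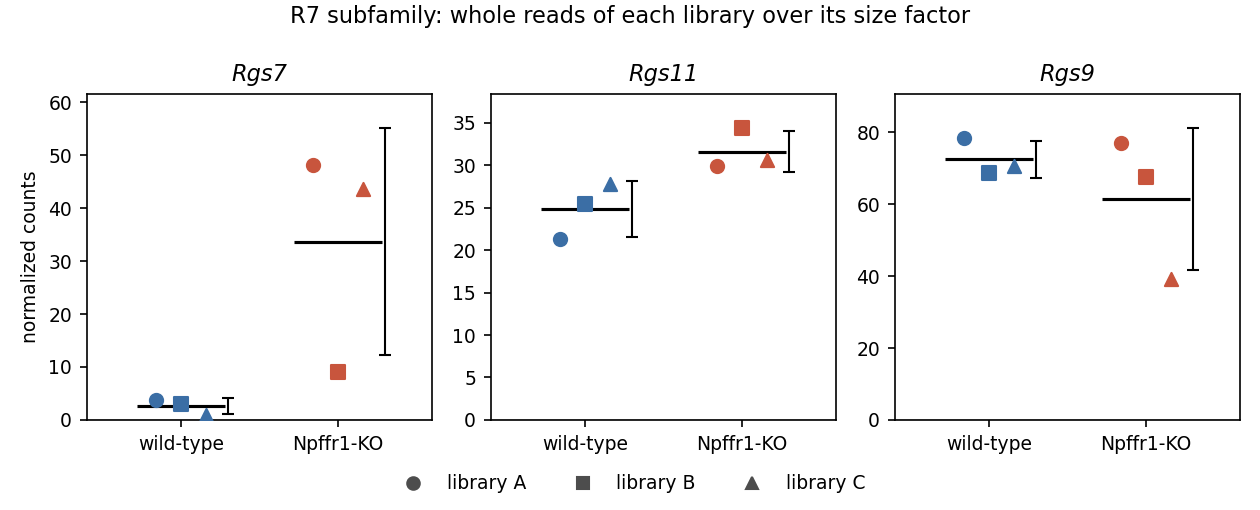
Normalized counts (whole reads over the size factor) of *Rgs7*, *Rgs11* and *Rgs9* in each of 6 libraries, with the mean as a line and the SD (n = 3) as a bar. *Rgs7* separated the genotypes with a wide spread in Npffr1-KO (9.08 to 48.2), *Rgs11* separated them narrowly, and *Rgs9* overlapped.

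The make-up of the R7 subfamily in each genotype was described from the deposited values. In wild-type, *Rgs6* held 44.7% of the summed R7 level per kilobase, *Rgs11* 25.9%, *Rgs9* 23.7% and *Rgs7* 5.60%. In Npffr1-KO, the shares were 30.8% for *Rgs6*, 28.8% for *Rgs11*, 18.5% for *Rgs9* and 21.9% for *Rgs7*. The sum itself was 48.7 normalized counts per kilobase for wild-type and 53.8 for Npffr1-KO. *Rgs7* was chosen on its ratio between genotypes, so its larger share in Npffr1-KO follows from that choice. A larger share of *Rgs7* also lowers the shares of the other genes, so no separate result is read from the shares. These shares rest on the deposited values, in which the level of *Rgs7* is drawn up in wild-type and its ratio is shrunken.

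The partners of the R7 proteins were close to equal between genotypes. *Gnb5*, which encodes the Gbeta5 subunit that R7 proteins need, had 1091 normalized counts in wild-type iAT and 1139 in Npffr1-KO iAT, a log2 ratio of 0.06. *Rgs7bp*, which encodes the lipid-modified anchor that holds R7 complexes at the plasma membrane, had 208 and 225, a log2 ratio of 0.11. *Rgs9bp*, the related anchor of RGS9 in photoreceptors, had 20, 14 and 16 reads in the wild-type libraries, against 19, 26 and 7 in those of Npffr1-KO, which overlapped. *Gpr179*, an orphan receptor that binds R7 proteins in the retina, had a mean under 10. For *Gnb5* and *Rgs7bp* the reads per library could not be worked out, so no spread is known.

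The R4 genes of the set differed between genotypes in both directions. *Rgs2* (Entrez 19735), which encodes an inhibitor of Gq signalling and is inducible by cAMP in many cells, had 719 normalized counts in wild-type iAT and 1139 in Npffr1-KO iAT, a 1.58-fold ratio, of rank 291 among 15309. *Rgs4* (Entrez 19736), whose product acts on both Gi/o and Gq and which is expressed in mural cells and neurons, had 961 in wild-type and 657 in Npffr1-KO, that is 1.46-fold lower. The *Rgs2* level was thus 0.734 times that of *Rgs4* per kilobase in wild-type and 1.70 times in Npffr1-KO. *Rgs5*, the most abundant, had 15562 and 13644 normalized counts, a log2 ratio of -0.19, and -0.13 once centred on genes of like length. *Rgs16*, an inducible gene whose product acts on Gi/o and Gq, had 410 and 492, a log2 ratio of 0.26. The reads of these 4 genes per library could not be worked out.

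*Rgs5* and *Rgs4* are expressed in the mural cells of vessels, and the markers of vessels had lower values in Npffr1-KO too. Of 6 pericyte markers 5 had a lower value in Npffr1-KO, with a median log2 ratio of -0.21 and a sum of 21499 normalized counts in wild-type against 17611. The exception was *Higd1b*, with a log2 ratio of 0.28. All 6 markers of vascular smooth muscle were lower, with a median of -0.29 and sums of 25396 and 21290. Of 6 endothelial markers 5 were lower, with a median of -0.32 and sums of 59803 and 47916. No marker of these lists was at 0 and none reached 1.5-fold. Once centred on genes of like length, the pericyte marker *Cspg4* had a log2 ratio of 0.13 in place of -0.02, and *Higd1b* 0.02. The other markers of the 3 lists stayed below 0 after this centring. In bulk tissue, fewer cells of a type and less RNA per cell cannot be told apart, and the part of vessel content in the values of *Rgs4* and *Rgs5* was not tested.

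Of the 10 genes, 2 were at least 1.5-fold higher in Npffr1-KO (*Rgs7* and *Rgs2*) and 0 were at least 1.5-fold lower. Among all 15309 genes with a mean of at least 10, 2.78% were that much higher and 3.12% that much lower. Since the genes were chosen with this contrast in view, nothing is read from the count. The median log2 ratio of the 10 genes was 0.09, beside 0.01 over all genes past the filter.

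In the wider Rgs family, 19 of 20 genes of the R4, R7, R12 and RZ subfamilies were listed and 17 had a mean of at least 10. Of these, 4 were at least 1.5-fold higher in Npffr1-KO and 0 at least 1.5-fold lower, with a median log2 ratio of 0.09. Over all 15309 genes with such a mean, 2.78% were that much higher and 3.12% that much lower. Once centred on genes of like length, 2 of the Rgs genes were that much higher, *Rgs7* and *Rgs2*. Over all 15309 genes, 340 were then that much higher and 540 that much lower. *Rgs7* and *Rgs2* were chosen with this contrast in view, so nothing is read from these counts. The others of the 4 were *Rgs1* and *Rgs10*. *Rgs1*, a gene of activated lymphocytes, had 182 normalized counts for wild-type and 305 for Npffr1-KO. *Rgs10*, a gene of leukocytes and microglia, had 853 and 1331. Centring changed the log2 ratio of *Rgs1* from 0.75 to 0.58, just under 1.5-fold, and that of *Rgs10* from 0.64 to 0.44. T cell markers were higher in Npffr1-KO as well. Their sum was 6627 in wild-type and 10478 in Npffr1-KO, all 6 had a log2 ratio above 0, 4 of 6 were at least 1.5-fold higher (1 of 6, *Lck*, after the same centring), and none was at 0. The median log2 ratio of 5 macrophage markers was 0.24 and that of 4 B cell markers 0.26. The part of immune cell content in the values of *Rgs1* and *Rgs10* was not tested. The most abundant Rgs genes per kilobase outside the set were *Rgs10* (975.2 in wild-type), *Rgs3* (905) and *Rgs19* (883), and the log2 ratios of the latter 2 were -0.11 and 0.12. *Rgs12* and *Rgs14*, which encode scaffold proteins with an RGS domain, had log2 ratios of -0.29 and 0.31.

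The G protein subunits on which these proteins act were mostly close to equal. Among 5 genes of the Gi/o/z class none reached 1.5-fold on the deposited values, and the median log2 ratio was -0.11. From reads, *Gnaz* was 1.62-fold lower in Npffr1-KO, with 28, 41 and 22 reads in wild-type, against 12, 16 and 25 in Npffr1-KO, and the groups overlapped. *Gnai2* was the most abundant of them, with 23907 normalized counts for wild-type and 24415 for Npffr1-KO, and *Gnai1* followed per kilobase, with 3223 and 2418. *Gnas*, the stimulatory subunit that raises cAMP, had 58958 and 59765. The Gq class held 1 gene past 1.5-fold in each direction. *Gna15*, found mainly in blood cells, had 112 and 173 normalized counts, a log2 ratio of 0.62 that was 0.54, under 1.5-fold, once centred on genes of like length. *Gna14* had 43, 52 and 55 reads in the wild-type libraries, against 16, 21 and 41 in those of Npffr1-KO. Normalized, Npffr1-KO C (44.7) lay above wild-type A (41.5), so the groups of *Gna14* overlapped. The widely expressed *Gnaq* and *Gna11* had log2 ratios of -0.19 and -0.09. None of 3 G beta genes (median 0.01), 10 G gamma genes (median 0.12), 2 genes of the G12/13 class (median -0.15) and 7 genes of receptor kinases and arrestins (median 0.10) past the filter reached 1.5-fold on the deposited values.

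**Figure D3:**
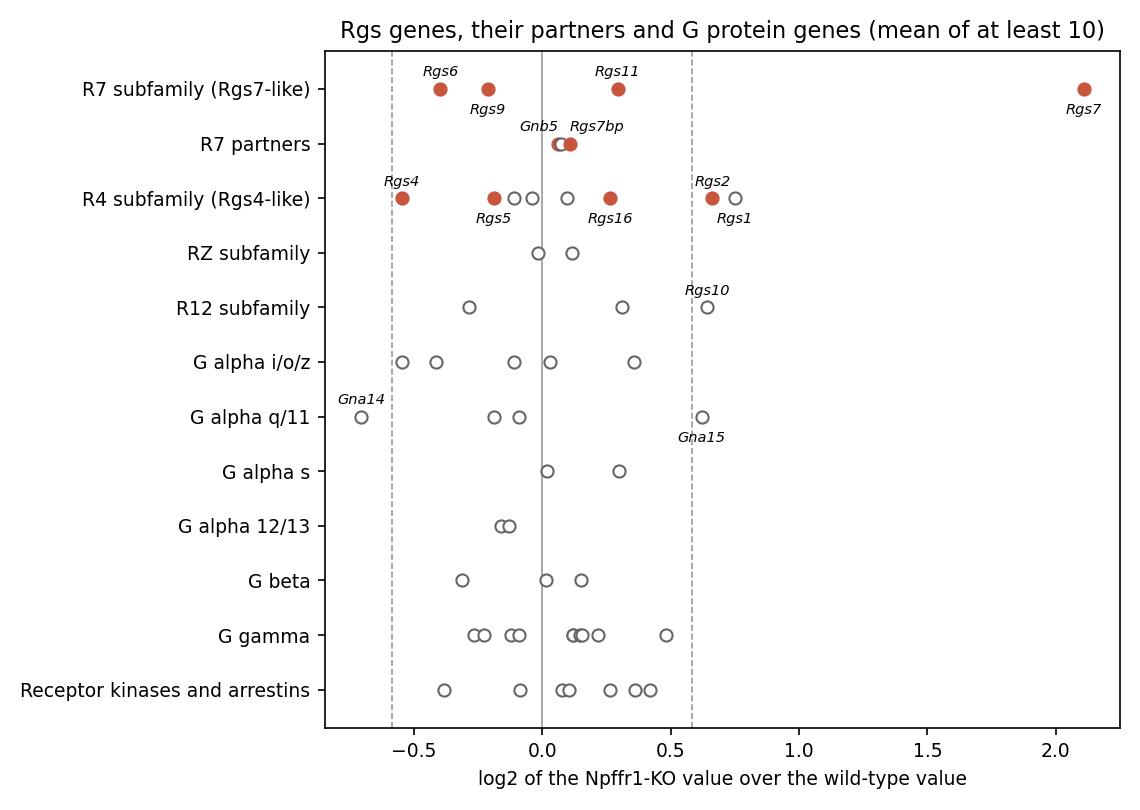
Log2 of the Npffr1-KO value over the wild-type value for the Rgs genes, the R7 partners and the G protein genes with a mean of at least 10, with 1 point per gene. Filled points are genes of the set, open points are other genes of the lists, and dashed lines mark 1.5-fold. Nearly all points lie within the dashed lines, and *Rgs7* (2.11) stands apart.

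The pattern of *Rgs7* over the 6 libraries was compared with that of the other genes with a mean of 10 to 70, a choice made after its values were seen. The most alike of 2538 genes on the scale of log2(normalized count + 1) was *Adrb1*, the gene of the beta-1 adrenergic receptor, a Gs-coupled receptor of adipocytes, with r = 0.995 over 6 libraries. *Adrb1* had 49, 42 and 36 reads in the wild-type libraries, against 107, 58 and 99 in those of Npffr1-KO. As for *Rgs7*, the groups did not overlap and Npffr1-KO B was the lowest of its genotype. *Adrb1* was picked for this likeness, so these shared traits are no separate result. Its means were 41.4 ± 5.80 and 89.9 ± 27.3 normalized counts (SD, n = 3 each), a 2.17-fold ratio. Next came *Gm8624* with r = 0.981 and *Adamtsl2*, which encodes an extracellular matrix protein, with r = 0.967. Both genotype and library enter these coefficients, which only describe likeness.

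Markers of thermogenic adipocytes, such as those of brown and beige fat, were higher in Npffr1-KO beside *Rgs7*. The 7 listed added up to 1608 normalized counts for wild-type and 5241 for Npffr1-KO, and of 6 past the filter 5 were at least 1.5-fold higher, with a median log2 ratio of 1.53. Each of these 5 had a mean above 70, so their reads per library could not be worked out and their spread is not known. *Ucp1*, which uncouples respiration, had 438 and 1287. General adipocyte markers had a median of 0.09. *Dio2*, which encodes the enzyme that activates thyroid hormone, had reads per library that did not follow *Rgs7*. It had 13, 11 and 51 reads in the wild-type libraries, against 54, 26 and 19 in those of Npffr1-KO. *Elovl3*, also of this list, was below 1 normalized count in both genotypes (0.452 in wild-type and 0.511 in Npffr1-KO). Markers of skeletal muscle had a median log2 ratio of 0.75. Of those past the filter only *Ckm* had reads per library, and for this gene 1 library stood apart. *Ckm*, muscle creatine kinase, had 2, 3 and 2 reads in wild-type, against 215, 1 and 6 in Npffr1-KO. Without Npffr1-KO A the log2 ratio of *Rgs7* from reads was 3.34. The 7 neuron markers listed had sums of 315.5 and 326.6. Of the 6 past the filter none reached 1.5-fold on the deposited values, while from reads *Rbfox3* was lower (17, 46 and 25 reads in wild-type, against 13, 24 and 15 in Npffr1-KO) and *Syt1* higher (10, 14 and 7, against 13, 20 and 13) by more than that. Schwann cell markers had a median of -0.46. The part of thermogenic adipocytes or of other cell types in the *Rgs7* reads was not tested.

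**Figure D4:**
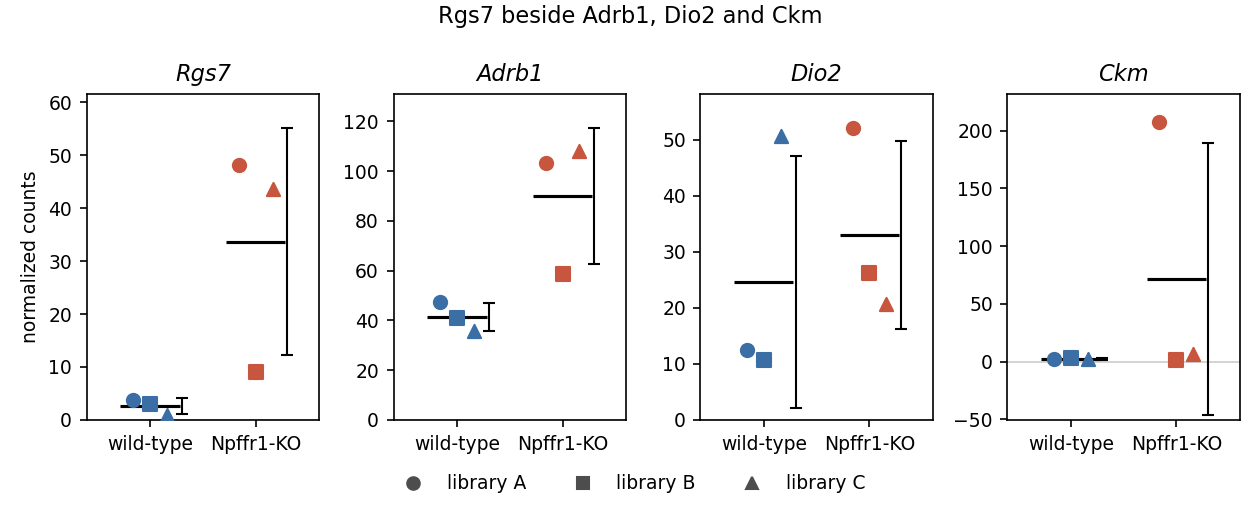
Normalized counts (whole reads over the size factor) of *Rgs7*, *Adrb1*, *Dio2* and *Ckm* in each of 6 libraries, with the mean as a line and the SD (n = 3) as a bar. *Adrb1*, chosen for its likeness to *Rgs7*, also has Npffr1-KO B lowest of its genotype. Its highest library is Npffr1-KO C, while that of *Rgs7* is Npffr1-KO A. *Dio2* overlaps between genotypes, and *Ckm* is high in Npffr1-KO A alone (207).

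In the genome the high ratio of *Rgs7* was not shared by the genes around it. Of the 5 protein-coding genes on either side, 6 had a mean of at least 10, and their log2 ratios ranged from -0.57 to 0.37. Around *Rgs2*, 7 such genes ranged from -0.57 to 0.75, and the 1 past 1.5-fold was its neighbour *Rgs1*. Shared sequence between genes was small for the genes with the widest ratios. In GENCODE M21 transcripts, 0.243% of the 31-base words of *Rgs7* occurred in another gene, 0 of those of *Rgs2* and 0.451% of those of *Rgs4*. The highest shares were 9.09% in *Rgs16*, all with *Gm28513* on the other strand, and 7.40% in *Gnb5*. Whether the counting used strand is not given in the sources used here, so reads of *Rgs16* and *Gm28513* could not be told apart in that stretch, and the values of *Rgs16* and *Gnb5* are uncertain to that extent.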

How the data were processed

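Total RNA of iAT was extracted with TRIzol and sequenced. The authors' deposited table gives a signal, 1 library-size normalized read count per gene and genotype, made with Bowtie2, RSEM and DESeq2 according to the submitters' processing notes. Of versions, genome build and annotation nothing is stated in these notes. The other columns hold the authors' fold changes and p-values and were not used. A second deposited table, a subset of the first, was not used. No test was run, because the members were chosen on this contrast and the table lists no value per sample from which all genes could be tested.

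Genes with a single read gave the size factors of the 6 libraries, between 0.916 and 1.04, and the genotype value that such a read raised gave the genotype of each library. All combinations of whole reads were then compared with the mean of both deposited values of each gene with a mean under 70 normalized counts. Of 7063 genes, 99.96% had exactly 1 match, 2 had none and 1 had more. Directions from reads and from the deposited values were equal for 100% of the 4192 genes whose deposited log2 ratio exceeded 0.1 in size, and below that size they were not compared. The search was tested on simulated data. Intervals of read ratios cover counting error only and are not used as tests.

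Only genes whose mean reached 10 normalized counts were counted, and 1.5-fold was the threshold. Levels were divided by the listed gene length. The members and lists were chosen with earlier results of these data known. Named genes are the members, genes of the fixed lists past 1.5-fold or among the 2 highest per length, and the neighbours of *Rgs7* in ratio. *Rgs3*, *Rgs8*, *Rgs12*, *Rgs13*, *Rgs14*, *Rgs17*, *Rgs19*, *Rgs20*, *Rgs9bp*, *Gpr179*, *Gnaz*, *Ckm*, *Cspg4*, *Dio2*, *Elovl3*, *Higd1b*, *Lck*, *Rbfox3*, *Syt1* and the genes most like *Rgs7* were named after their values were seen. Alternatives were other pseudocounts, folds and filters, centring, and leaving out libraries. Python 3.11.15 with numpy 2.4.6, pandas 2.3.3 and scipy 1.17.1 was used.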

Additional observations from a re-analysis of the deposited data

How the results depend on the processing

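Of 235 values under alternative settings, 198 moved by less than their spread or counting error (counts by less than 1.5 times) and 37 moved more. Many of the 198 are list counts that stayed at 0. A change of sign was looked for only in ratios past 1.5-fold, those of *Rgs7* and *Rgs2*. That 0 changed sign there thus says little. Smaller values could change sign, as the G gamma median did on centring, from 0.12 to -0.06. At 2-fold, 1 member was higher in Npffr1-KO in place of 2, and at a log2 ratio of 0.32 in size 2 members were lower in place of 0. Over all genes, 1839 were higher and 1782 lower at 0.32, 74 and 48 at 2-fold, and 234 and 197 with a minimum mean of 100, beside 425 and 477 as reported. Centring on genes of like length took 2 of 4 Rgs genes, 3 of 4 T cell markers, *Gna15* and 1 Schwann cell marker below 1.5-fold. It also took the skeletal muscle markers at least 1.5-fold higher from 3 to 2. This centring of list and gene counts, like the list counts from reads, was chosen after seeing the data. The log2 ratio of *Rgs7* was 1.23 with a pseudocount of 10 and 3.69 from reads, beside 2.11, because a pseudocount and shrinkage both pull low genes towards 0. With each library left out, the log2 ratio from reads ranged from 3.31 to 4.14 for *Rgs7*, from 0.25 to 0.44 for *Rgs11* and from -0.44 to -0.00098 for *Rgs9*. No paired analysis was possible because the libraries found from the table carry no sample numbers. Low read numbers limit *Rgs7*, with 8 reads over 3 wild-type libraries, and members with a mean above 70 have no known spread between libraries.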

Other observations

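Several Rgs genes with few reads varied widely among libraries of a genotype. *Rgs17*, of the RZ subfamily, had 35, 60 and 91 reads in the wild-type libraries, against 89, 68 and 23 in those of Npffr1-KO. Its means, 61.0 ± 28.3 and 59.8 ± 31.3 normalized counts (SD, n = 3 each), were nearly equal. *Rgs8* had 28, 29 and 18 reads in wild-type, against 34, 31 and 14 in Npffr1-KO. *Rgs20*, with a mean under 10, had 13, 3 and 3 reads and 6, 5 and 11 reads. *Rgs13*, a gene of germinal centre B cells and also with a mean under 10, had 9, 12 and 5 reads and 5, 6 and 1 reads. The groups overlapped for each of these 4 genes.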
